A study of Mus musculus with 16 samples.

Results

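The transcriptome was followed between day 3 and day 6 of reprogramming in mouse embryonic fibroblasts (MEFs) in which Wdr5 had been knocked down. The comparison used 4 of the 16 RNA sequencing libraries of the series, 2 siWdr5 libraries at day 3 and 2 at day 6 (R1 and R2, from independent experiments). It covered the 14028 of 18990 genes whose mean level over all 16 libraries reached a log2 CPM of 0 (CPM, read counts scaled to the size of the library). CPM values here were turned back from the deposited log2 scale, which adds about 2 to 4 reads to each count, so that 0 reads do not read as 0 CPM, and they are not per length, so that levels are compared between samples and not between genes. The cells were wild-type MEFs of the BL6 strain at passage 2, infected with lentiviruses that carry the tet-STEMCCA cassette of Oct4, Sox2, Klf4 and c-Myc (OSKM) and the rtTA activator. They received siRNAs against Wdr5 or a non-targeting (nt) siRNA once, on the day before doxycycline, and OSKM was then induced with 2 µg/mL doxycycline in medium with chiron, an Alk5 inhibitor, ascorbic acid and LIF. The nt control groups, also 2 libraries per day, carried the same cassette and had the same medium, and so did the siBrca1 and siBard1 groups, which served for 1 comparison and for the shared estimate of the spread. Each library was a bulk sample of all cells in the culture, in which cells that respond to OSKM and cells that do not are mixed. The siWdr5 libraries held 14102198 to 26832534 reads, and the 16 libraries 11169738 to 26832534.

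Wdr5 is a WD40-repeat scaffold protein shared by the SET1 and MLL (KMT2) complexes, which methylate histone H3 at lysine 4 at promoters and enhancers, and it is also a subunit of acetyltransferase complexes. In embryonic stem cells it is required for self-renewal and works with Oct4. During the first days of reprogramming, fibroblasts lose contractile and mesenchymal gene expression, pass through a mesenchymal-to-epithelial transition (MET) in which E-cadherin and tight junction genes come on, and later activate genes of the pluripotency network.

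The siRNAs of the library were used as pools of 3 per gene. The table used here lists 2 siRNAs for Wdr5, and the labels do not say whether these same duplexes were in the pool used for sequencing. Their guide strands are shown 5′ to 3′ with the seed, bases 2 to 8, in capitals.
siRNA 172500 guide: cAUAGUUUggcuuaacuggtg
siRNA 172501 guide: cACGGUUGaaaugaacggctg
siRNA 172500 target site: ccagttaagccaaactatg
siRNA 172501 target site: gccgttcatttcaaccgtg
Both target sites lay in the coding sequence of the main Wdr5 transcript (GRCm38, GENCODE vM21, plus strand of chromosome 2). The first fell in exon 3 of 14 at chr2:27519355-27519373. The second spanned the junction of exon 7 (chr2:27520909-27520911) and exon 8 (chr2:27525106-27525121).

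Wdr5 (ENSMUSG00000026917, chr2:27515157-27536535) rose between the days in the siWdr5 cells. It was measured at 50.6 and 55.3 CPM in the day 3 libraries and at 85.5 and 72.4 CPM at day 6. In the nt control it was at 132 and 130.4 CPM at day 3 and 91.8 and 98.1 CPM at day 6. Both siWdr5 libraries lay under both nt libraries at each day, with a narrower gap at day 6. The siWdr5 rise was 0.57 ± 0.12 on the log2 scale (standard error, n = 2 per day; limma adjusted p = 0.00323), and Wdr5 fell by 0.47 in the nt course (adjusted p = 0.00539). The difference between the courses, 1.04 ± 0.17, passed the test (adjusted p = 0.0125). It ranged from 0.92 to 1.16 when 1 siWdr5 or nt library was left out, and passed in only 3 of these 8 fits. Without siWdr5 day 6 R1 the rise was 0.45 with an adjusted p of 0.0540. Brca1, the DNA repair ubiquitin ligase, stood at 40.5 and 48.4 CPM at day 3 and 42.6 and 38.3 CPM at day 6. Its partner Bard1 stood at 13.9 and 15.3 CPM at day 3 and 11.9 and 13.2 CPM at day 6. Neither passed the test in the siWdr5 course (adjusted p = 0.694 and 0.459).

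From day 3 to day 6 the siWdr5 cells gained epithelial, pluripotency and ribosomal protein transcripts and lost contractile transcripts. Of 14028 genes, 2090 rose (14.9%) and 1463 fell (10.4%) at an adjusted p below 0.05. With a change above 1 on the log2 scale as a further requirement, the threshold for a call, 799 genes were called higher (5.7%) and 230 lower (1.64%). For all 799 and all 230 called genes both day 6 libraries lay on the same side of both day 3 libraries. In the nt control course 2667 genes rose (19%) and 3807 fell (27.1%), with 1094 (7.8%) called higher and 565 (4.03%) called lower. Of the 3807 genes that fell with nt siRNA, 1164 fell with siWdr5, 25 rose and 2618 did not pass. For 429 of the 3807 the test of the difference between the courses passed with a positive sign, against 477 (3.4%) of all genes tested. The nt change is part of this difference, so that picking genes by their nt fall favors a positive sign, and no conclusion is drawn from the count. Of the genes called higher in siWdr5 cells, 511 were also called higher in the nt course, 64.0% of the siWdr5 list and 46.7% of the nt list. Of those called lower, 126 were shared, 54.8% of the siWdr5 list and 22.3% of the nt list. The call went the opposite way in the nt course for 1 gene of the higher list and 3 genes of the lower list. The number of genes called lower dropped to 132 without siWdr5 day 6 R1. Under quantile normalization the split moved to 530 higher and 371 lower. With each library centered on its median 1758 genes rose and 2492 fell at an adjusted p below 0.05, so that more genes fell than rose, and 676 and 303 were called higher and lower. With 2 libraries per day, the p-values rest on a spread estimated from the library pairs of all 8 groups in the shared fit. A fit of the 4 siWdr5 libraries alone gave 2509 genes that rose and 1833 that fell at an adjusted p below 0.05.

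**Figure D1:**
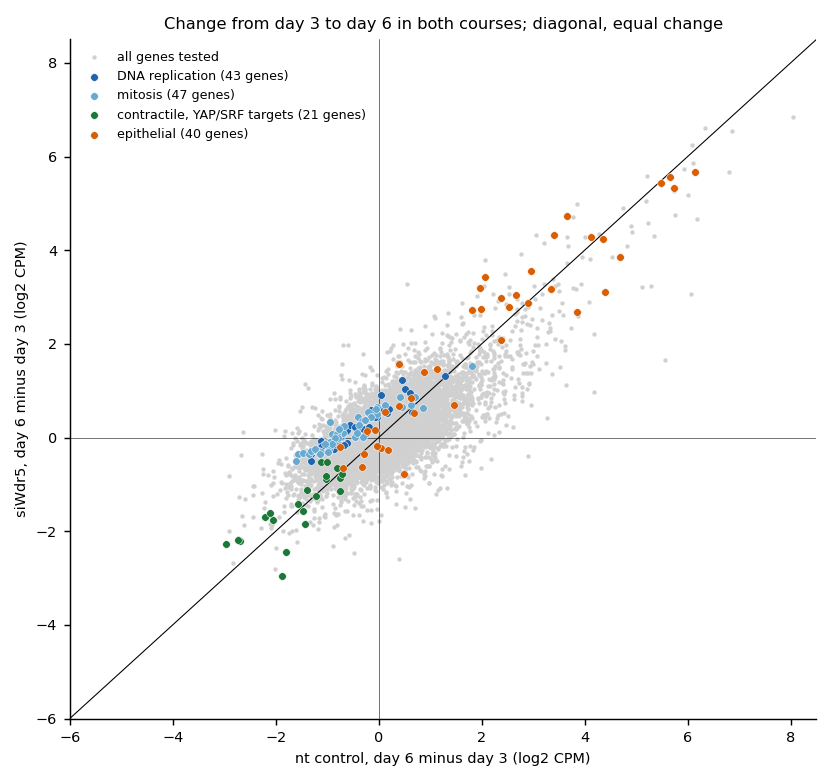
Each grey point is 1 of the genes tested, placed by its change from day 3 to day 6 in the nt control course (x axis) and in the siWdr5 course (y axis), both as a difference of log2 CPM. Epithelial genes lie at the upper right and contractile genes at the lower left near the diagonal of equal change, whereas DNA replication and mitotic genes lie above it, with siWdr5 changes near 0 and negative nt changes.

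Epithelial genes had the highest median rise of the lists described here. Of 40 tested genes of this list, 28 rose, Cldn12 fell and 11 did not pass, with a median log2 change of 2.71 against 0.02 over all genes tested. The surface adhesion gene Cdh1, which encodes E-cadherin, rose from 12.6 and 12.7 CPM to 113 and 117 CPM, 3.18 ± 0.22 on the log2 scale (adjusted p = 1.50e-07). Epcam, an epithelial adhesion molecule, rose from 2.19 and 2.06 CPM to 68.7 and 46.3 CPM. For both genes the day 6 libraries lay far above both day 3 libraries. The simple-epithelium keratins Krt8 and Krt18 rose from 2.13 and 2.46 CPM to 148 and 81.3 CPM and from 3.00 and 2.86 CPM to 120.4 and 77.5 CPM. Their day 6 values in R2 were lower than in R1. Among tight junction genes, Cldn4 rose from 0.758 and 0.601 CPM to 25.9 and 32.5 CPM. The tight junction gene Cldn6 had 3 reads in the day 3 libraries together and 479 at day 6, a ratio of 122 (95% exact interval 41.6 to 595, counting error only). The apical polarity gene Crb3, with 3 and 357 reads, had a ratio of 91.1 (interval 30.9 to 444), and the sorting adaptor subunit Ap1m2, with 1 and 300 reads, a ratio of 230 (interval 40.9 to 9097). The epithelial splicing factor Esrp1 changed by 4.29 ± 0.37 and the transcription factors Grhl2 and Elf3 by 4.25 ± 0.40 and 4.33 ± 0.32 on the log2 scale. The claudin that fell, Cldn12, went from 44.5 and 51.2 CPM to 29.0 and 32.0 CPM. In bulk libraries, more cells of a type and more RNA per cell cannot be told apart. In the nt course 26 epithelial genes rose and 2 fell, with a median of 1.97, and the median over the 40 genes of the difference between the courses was 0.11. Leaving out 1 siWdr5 library at a time left 26 or 27 epithelial genes that rose, and Cldn12 no longer passed without day 3 R2 or without day 6 R1.

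Krt18, Cldn4 and Epcam, 3 of the genes with large rises, are shown here because their promoters (RefSeq, GRCm38.p6) held the letters CACCTG or CAGGTG, the same site read on either strand, which Snail and Zeb repressors of epithelial genes recognize. These windows of 30 bases carry the site in capitals and lie on the strand of the gene. Cldn4 and Epcam held a second match each, which is not shown.
Krt18, 214 bases before its start (chr15:102027990-102028019, plus strand): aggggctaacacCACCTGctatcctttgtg
Cldn4, 14 bases before (chr5:134946931-134946960, minus strand): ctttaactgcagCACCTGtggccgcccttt
Epcam, 19 bases before (chr17:87635948-87635977, plus strand): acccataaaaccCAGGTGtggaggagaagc
These letters occurred in 20.2% of the 32851 promoter windows of the same length (250 bases before to 50 after a start), and a match describes the letters only. The transcripts of these repressors did not pass the test between the days. Zeb1 was at 116 and 127 CPM at day 3 and 86.9 and 110.3 CPM at day 6, and Zeb2 at 149 and 147 CPM at day 3 and 107 and 129 CPM at day 6. Snai1 was at 100.3 and 99.3 CPM at day 3 and 71.3 and 97.6 CPM at day 6, and Snai2 at 30.1 and 33.6 CPM at day 3 and 24.9 and 29.3 CPM at day 6. The adjusted p values of the 4 genes lay between 0.0819 and 0.361, although both day 6 libraries lay under both day 3 libraries for each of them. In the 11 alternatives that kept all siWdr5 libraries, Zeb2 passed in 3, Zeb1 in 1, and Snai1 and Snai2 in 0.

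**Figure D2:**
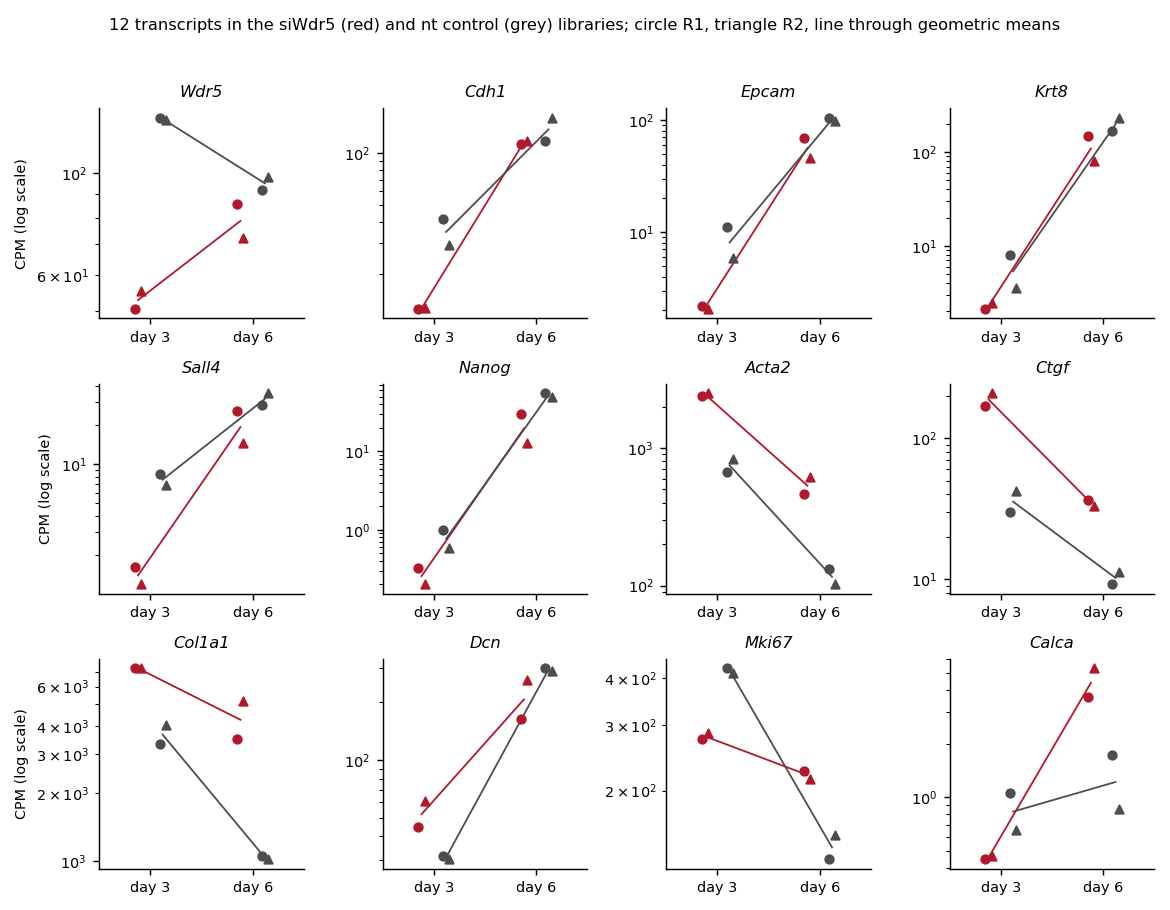
Each panel shows CPM on a log axis for 1 transcript in the siWdr5 (red) and nt control (grey) libraries at day 3 and day 6, with R1 as a circle, R2 as a triangle and a line through the geometric means of the 2 libraries. Cdh1, Epcam, Krt8, Sall4 and Nanog rise in both courses, Acta2 and Ctgf fall in both from higher day 3 levels in siWdr5 cells, and Wdr5, Mki67 and Calca take different slopes.

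Pluripotency transcripts rose, and stood higher in day 6 R1 than in R2. Of 16 tested genes of the early pluripotency list 10 rose, and of 11 late genes 6 rose, with median log2 changes of 1.36 and 1.97. Sall4, a zinc finger factor that marks early reprogramming colonies, rose from 1.63 and 1.20 CPM to 25.6 and 14.4 CPM (3.78 ± 0.26 on the log2 scale, adjusted p = 1.50e-07). Nanog, a core factor of the pluripotency network, rose from 0.323 and 0.203 CPM to 29.8 and 12.8 CPM, that is from 4 reads in the day 3 libraries together to 763 reads. Esrrb, an orphan nuclear receptor of naive cells, rose from 0.323 and 0.203 CPM to 6.34 and 3.00 CPM. The early marker Dppa5a had 0 reads in both day 3 libraries and 554 and 166 reads at day 6. Against a floor of 3 reads over both day 3 libraries it was at least 184-fold higher. The Nodal co-receptor Tdgf1 went from 1 read to 666 reads, a ratio of 510 (95% exact interval 91.2 to 20158), and the RNA-binding protein Lin28a from 2 to 218 reads, a ratio of 83.4 (interval 22.8 to 693). Dppa3, a maternal effect gene of the naive state, went from 1 to 160 reads, a ratio of 122 (interval 21.7 to 4865). The nuclear receptor Nr5a2, which can stand in for Oct4, rose from 1.63 and 1.20 CPM to 8.62 and 5.52 CPM, and Tfcp2l1 from 2.75 and 3.32 CPM to 14.3 and 10.2 CPM. The DNA modifying enzymes Dnmt3b and Tet1 changed by 1.63 ± 0.30 and 1.36 ± 0.23 on the log2 scale. All 16 members that rose in these lists were higher in day 6 R1 than in R2, against 491 of the 799 genes called higher (61.5%). The part of this difference between libraries in the results was not tested. Without day 6 R1, 7 early and 5 late genes rose. Fbxo15, an early target of Oct4, rose from 0.758 and 1.07 CPM to 6.06 and 2.04 CPM but no longer passed without day 6 R1 or without either day 3 library. In the nt course 10 early genes rose and 1 fell (median 1.36) and 7 late genes rose (median 0.96). The median of the difference between the courses was nevertheless −0.29 for the late list, with the sign opposite to that of the medians set side by side, and 0.14 for the early list. Under quantile normalization the early median of the difference was −0.12. The DNA methyltransferase cofactor Dnmt3l was at 1.38 and 1.73 CPM at day 3 and 1.38 and 1.85 CPM at day 6 with siWdr5 and rose with nt siRNA from 0.268 and 0.707 CPM to 1.98 and 2.13 CPM.

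Further genes with the largest rises included transporters, hormones and receptors. The glucose transporter Slc2a3 rose from 3.99 and 4.38 CPM to 146 and 121 CPM, 4.99 ± 0.19 on the log2 scale, with an adjusted p of 3.30e-10. The peptide hormone genes Trh and Apela rose by 4.71 ± 0.61 and 4.08 ± 0.23 on the log2 scale. The fast-twitch myosin light chain Mylpf rose from 2.19 and 1.66 CPM to 64.1 and 22.2 CPM, with R1 well above R2 at day 6. The inflammasome receptor Nlrp12, the exocytosis gene Cadps and the angiotensin receptor Agtr2 rose by 4.29, 3.85 and 3.80. In the nt course the same 7 genes also rose, by 5.34 (Mylpf), 4.10 (Agtr2), 3.94 (Cadps), 3.85 (Slc2a3), 3.77 (Trh), 3.67 (Apela) and 3.65 (Nlrp12). Nlrp12 shares 0.82% of its exon bases with other genes on its own strand and 6.31% with genes on the other strand. These other genes are microRNA genes, among them Mir291a, Mir292 and Mir295. Their part in the reads of Nlrp12 was not tested.

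Contractile genes and other targets of the SRF and YAP factors fell in siWdr5 cells as they did in the nt control. Of 21 tested genes 20 fell, with a median log2 change of −1.42, and Cyr61 did not pass, at 409 and 431 CPM at day 3 and 276 and 312 CPM at day 6. Skeletal alpha actin Acta1 had the largest fall of the list, from 47.1 and 49.5 CPM to 6.34 and 6.17 CPM (−2.95 ± 0.36 on the log2 scale, adjusted p = 5.14e-05). Smooth muscle actin Acta2 fell from 2397 and 2504 CPM to 463 and 612 CPM and Actg2 from 436 and 463 CPM to 83.0 and 106 CPM. Calponin, Cnn1, fell from 329.7 and 349 CPM to 68.2 and 81.5 CPM and the growth factor gene Ctgf from 169 and 209 CPM to 36.7 and 33.0 CPM. Both day 6 libraries lay far under both day 3 libraries for each of these genes. In the nt control all 21 genes fell, with a median of −1.43. By limma 0 of the 21 differed between the courses at an adjusted p below 0.05, with 1 at an unadjusted p below 0.05, and limma-voom on recovered reads gave the same counts. The day 6 siWdr5 libraries nevertheless held more Acta2 than the nt libraries at the same day (131 and 103 CPM), as they did at day 3 (671 and 832 CPM). Outside this list, the muscle scaffold gene Neb fell from 20.7 and 18.8 CPM to 3.24 and 3.95 CPM, the cartilage collagen Col2a1 from 47.0 and 49.8 CPM to 6.27 and 7.66 CPM, and Tspan2, Siglecg, Sorbs2 and Ppbp changed by −2.23, −2.16, −2.03 and −1.99 on the log2 scale. Leaving out 1 siWdr5 library left 16 (without day 6 R1) to 20 contractile genes that fell.

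Fibroblast markers were present at both days, and their changes went in both directions. Of the 9 marker genes used to check the labelled cell type, Col1a1, Col1a2, Fn1 and Prrx1 fell, Pdgfra and Twist2 rose, and Thy1, Pdgfrb and Col3a1 did not pass. Fibrillar collagen Col1a1 went from 7242 and 7228 CPM to 3507 and 5180.5 CPM and fibronectin Fn1 from 4593 and 4618 CPM to 1813 and 2005 CPM. The growth factor receptor Pdgfra went from 91.6 and 93.0 CPM to 168 and 166 CPM. The surface glycoprotein Thy1, often used to follow the loss of fibroblast identity, stood at 432 and 441 CPM at day 3 and 456 and 499 CPM at day 6, whereas it rose from 204 and 216 CPM to 469.8 and 422 CPM in the nt control. Of 20 mesenchymal transcription factors 3 rose and 3 fell, near the 14.9% of all genes tested that rose and the 10.4% that fell. Among them the bHLH factor Twist1 rose from 61.5 and 55.0 CPM to 85.8 and 109 CPM. The falls of Col1a1, Col1a2 and Prrx1 no longer passed without siWdr5 day 6 R1 or without either day 3 library. The rise of Twist1 was lost without day 6 R2 or either day 3 library, and that of Twist2 without day 6 R1.

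Extracellular matrix genes moved in both directions, where 14.9% of all genes tested rose and 10.4% fell. Of 33 collagen genes 11 rose and 12 fell, and of 33 matrix glycoproteins and proteoglycans 6 rose and 12 fell. Without day 6 R1, 6 collagen and 6 glycoprotein genes fell. Basement membrane collagen Col18a1 rose from 132 and 140.4 CPM to 552 and 584 CPM, and Col11a1 fell from 28.3 and 30.4 CPM to 9.79 and 13.3 CPM. Lox, which cross-links collagen, fell from 293 and 315 CPM to 76.0 and 98.9 CPM and thrombospondin Thbs1 from 8900.5 and 9163 CPM to 3128 and 3711 CPM. In contrast, the small proteoglycan Dcn rose from 44.7 and 60.8 CPM to 163 and 262 CPM and lumican, Lum, from 24.6 and 29.5 CPM to 108 and 142 CPM. Both rose further in the nt control, to 301 and 291 CPM and 192 and 168 CPM. Osteopontin, Spp1, rose from 288 and 328 CPM to 911 and 948 CPM in siWdr5 cells and from 161 and 145 CPM to 1631 and 1311 CPM in the nt control. Periostin, Postn, stood at 30.8 and 40.8 CPM at day 3 and 24.3 and 24.8 CPM at day 6 in siWdr5 cells, with no change that passed, and rose from 15.4 and 19.3 CPM to 54.1 and 52.0 CPM in the nt control. The hyaluronan synthase Has2 stood at 47.7 and 52.8 CPM at day 3 and 26.2 and 38.0 CPM at day 6, whereas it fell from 20.6 and 22.3 CPM to 4.38 and 4.68 CPM with nt siRNA. Among 25 matrix metalloproteinases, related proteases and inhibitors 7 rose and 5 fell. Stromelysin Mmp3 rose from 11.5 and 11.7 CPM to 95 and 78.7 CPM and the aggrecanase Adamts5 fell from 163 and 176 CPM to 46.7 and 58.8 CPM.

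Cell cycle genes mostly fell with nt siRNA. The siWdr5 counts are read against the 14.9% of all genes tested that rose and the 10.4% that fell. Of 43 DNA replication genes 11 rose and 1 fell in the siWdr5 course, with a median log2 change of 0.11, and 4 rose and 23 fell in the nt course, with a median of −0.62. Of 47 mitotic genes 7 rose in siWdr5 cells (median 0.07), whereas 4 rose and 28 fell with nt siRNA (median −0.79). For 41 genes of homologous recombination and the Fanconi pathway the counts were 5 rising with siWdr5 (median 0.02) and 4 rising and 22 falling with nt siRNA (median −0.52). The difference between the courses was above 0 for 42 of the 43 replication genes, 45 of the 47 mitotic genes and 38 of the 41 recombination genes. With each library centered on its median these counts were 41, 44 and 34. The median difference over all genes tested was 0.12 as deposited, and the share of all genes above 0 is not given here. Other lists also lay above 0, with 18 of 18 H3K4 methyltransferase subunits and 52 of 54 clustered histone genes, against 21 of 40 epithelial genes. The proliferation antigen Mki67 was at 274 and 285 CPM at day 3 and 225 and 216 CPM at day 6 in siWdr5 cells, and at 425 and 414 CPM at day 3 and 131 and 152 CPM at day 6 with nt siRNA. The siWdr5 libraries were thus lower than nt at day 3 and higher at day 6. Mcm3, a subunit of the replicative helicase, showed 86.7 and 85.7 CPM at day 3 and 83.5 and 78.8 CPM at day 6 against 140.5 and 143 CPM at day 3 and 66.1 and 68.2 CPM at day 6 with nt siRNA. Foxm1, the transcription factor of mitotic genes, showed 73.4 and 70.9 CPM at day 3 and 50.1 and 51.8 CPM at day 6 against 94.9 and 96.6 CPM at day 3 and 30.3 and 32.7 CPM at day 6. The siWdr5 libraries again lay under nt at day 3 and over nt at day 6, with no overlap. By the test of the difference itself, 5 replication genes (Mcm2, Mcm3, Pole, Rrm2 and Dnmt1) and 6 mitotic genes (Mki67, Spc24, Tpx2, Incenp, Foxm1 and Cdc25b) differed at an adjusted p below 0.05. So did 2 recombination genes (Rad51d and Topbp1). In all of them the siWdr5 change was the higher, as for 3.4% of all genes tested, and the recombination count was near that share. At an unadjusted p below 0.05 the counts were 30, 34 and 20, and the share of all genes at that threshold is not given here. By limma-voom 6, 6 and 5 passed, and by limma on the deposited values with a replicate block 12, 6 and 7 passed. With no trend in the fit 0, 0 and 0 passed, with 25, 26 and 20 at an unadjusted p below 0.05. Of the 13 genes named, none passed in all 8 fits that left out 1 siWdr5 or nt library. With each library centered on its median 0 replication and 0 mitotic genes passed (22 and 24 at an unadjusted p below 0.05) and 1 recombination gene. The list medians of the difference were 0.70, 0.78 and 0.57 as deposited and 0.57, 0.65 and 0.43 after centering. The siWdr5 medians themselves lay so near 0 that centering turned those of the mitotic and recombination lists to −0.02 and −0.06.

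The 7 of 47 mitotic genes and 5 of 41 recombination genes that rose were near the 14.9% of all genes tested that rose. Within these 2 lists and the replication list, the genes that rose in siWdr5 cells had different roles. Rpa3, a subunit of the single-strand binding protein, rose from 8.78 and 10.1 CPM to 24.2 and 22.7 CPM, and the primase Prim1 rose from 13.1 and 15.4 CPM to 39.0 and 28.9 CPM. The checkpoint kinase Chek1 rose from 13.4 and 16.6 CPM to 37.6 and 27.8 CPM and the securin Pttg1 from 3.87 and 5.78 CPM to 14.3 and 12.9 CPM. The fall was that of Rrm2, a subunit of ribonucleotide reductase, from 176 and 195 CPM to 129 and 134 CPM, and it no longer passed without day 3 R2 or day 6 R1. These counts were sensitive to single libraries. The number of replication genes that rose was 4, 5, 5 and 8 without siWdr5 day 3 R1, day 3 R2, day 6 R1 and day 6 R2, and for mitotic genes it was 3, 4, 2 and 8. For recombination genes it was 1, 4, 1 and 4.

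Most ribosomal protein genes rose, as did 41 genes of respiration. Of 84 ribosomal protein genes 63 rose, with a median log2 change of 0.79, and of 79 genes of oxidative phosphorylation 41 rose and 1 fell, with a median of 0.47, where 14.9% of all genes tested rose. Rpl36a rose from 70.6 and 70.4 CPM to 235 and 241 CPM. The complex I subunit Ndufs6 rose from 25.1 and 27.8 CPM to 68.6 and 58.5 CPM. Leaving out 1 siWdr5 library left 42 to 52 ribosomal protein genes that rose. The nt course gave 55 ribosomal protein genes that rose (median 0.78), and 39 respiratory genes that rose with 13 that fell (median 0.36). Clustered histone genes, whose transcripts mostly lack a poly(A) tail, had a median of 0.83, and 9 of 54 rose, near the 14.9% of all genes, against 2 that rose and 1 that fell in the nt course. All 9 were higher in day 6 R1 than in R2. Without day 6 R1 0 passed by limma (4 at an unadjusted p below 0.05), and without day 6 R2 17 did. All libraries together gave 8 by limma-voom, and 44 by limma on the deposited values with a replicate block. By limma without the block 26 stood at an unadjusted p below 0.05. The count of respiratory genes that rose was 17, 26, 24 and 26 without siWdr5 day 3 R1, day 3 R2, day 6 R1 and day 6 R2. Ribosomal protein and histone genes have near-identical copies, and how reads were shared between them is not given in the sources used here.

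**Figure D3:**
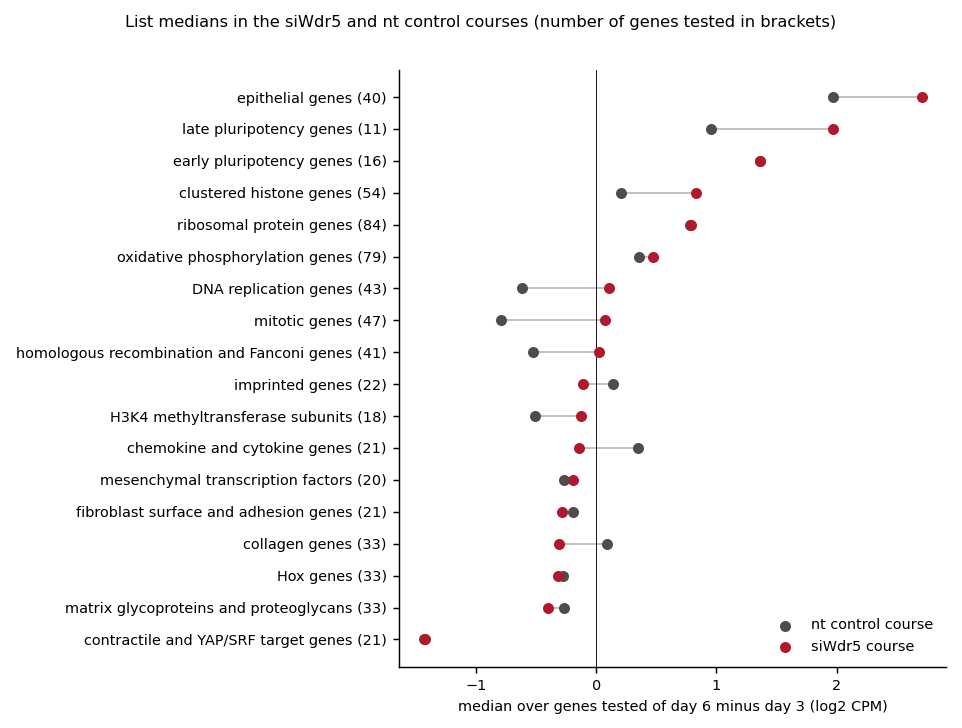
Medians over the genes tested in 18 lists of the change from day 3 to day 6 (x axis, log2 CPM) in the siWdr5 course (red) and the nt control course (grey). The lists for DNA replication, mitosis and recombination sit near 0 with siWdr5 and between −0.79 and −0.52 with nt siRNA, while the contractile and ribosomal protein medians coincide.

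Of 18 tested genes for H3K4 methyltransferase subunits 2 rose, Wdr5 itself and its partner Dpy30, and 3 fell, the methyltransferases Kmt2a, Kmt2c and Setd1b, where 14.9% of all genes tested rose and 10.4% fell. Dpy30 rose from 44.2 and 48.6 CPM to 97.9 and 74.7 CPM. Kmt2a, which encodes MLL1, fell from 265 and 232 CPM to 178 and 195 CPM. The core partners Ash2l and Rbbp5 stood at 65.7 and 74.6 CPM at day 3 and 66.7 and 66.5 CPM at day 6, and at 28.8 and 30.5 CPM at day 3 and 28.6 and 33.3 CPM at day 6. In the nt course 15 of the 18 fell. Without siWdr5 day 6 R1 none of the 5 passed by limma, and 2 higher and 1 lower stood at an unadjusted p below 0.05. Without day 3 R1, Wdr5 passed and the other 4 did not. Quantile normalization left the 2 that rose and 0 that fell (2 at an unadjusted p below 0.05). The difference between the courses passed for Wdr5, Men1, Hcfc1 and Paxip1, and for 2 of the 18 under median centering or quantile normalization. Of the OSKM genes, whose reads can come from the cassette or the endogenous gene, Myc fell from 412 and 408 CPM to 329.9 and 224 CPM (adjusted p = 0.0458). Pou5f1 was at 162 and 142 CPM at day 3 and 174 and 90.2 CPM at day 6, Sox2 at 231 and 184 CPM at day 3 and 177 and 95.5 CPM at day 6, and Klf4 at 489.6 and 442 CPM at day 3 and 392 and 239 CPM at day 6, and these 3 did not pass. For all 4 genes day 6 R2 was lower than R1. Myc no longer passed when either day 3 library or day 6 R2 was left out.

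Signaling, inflammatory and developmental genes changed in both directions. The counts of these lists are read against the 14.9% of all genes tested that rose and the 10.4% that fell. Of 70 genes of TGF-beta, BMP, FGF and Wnt signaling 22 rose and 12 fell, the rises including the ligands Wnt7b (2.34 ± 0.38 on the log2 scale) and Bmp2 (1.85 ± 0.31) and the falls the ligand Fgf7 (−1.63 ± 0.22). Dusp6, a target and inhibitor of ERK signaling, rose from 29.7 and 35.4 CPM to 52.0 and 48.2 CPM, less than in the nt course, where it rose from 25 and 25.9 CPM to 71.8 and 77.4 CPM, and its siWdr5 rise no longer passed without day 3 R1 or day 6 R1. Among 21 chemokine, cytokine and prostaglandin genes 2 rose and 3 fell, near the shares of all genes. The cytokine Il6 fell from 4.30 and 4.45 CPM to 0.757 and 1.43 CPM. Ptgs2, the inducible prostaglandin synthase, was at 164 and 187 CPM at day 3 and 141 and 147 CPM at day 6 with siWdr5, while it rose from 57.3 and 64.8 CPM to 222 and 166 CPM with nt siRNA. Its siWdr5 change did not pass the test. Of 33 Hox genes 5 fell, among them Hoxc8, from 33.2 and 33.9 CPM to 14.3 and 20.9 CPM, and without siWdr5 day 6 R1 0 passed by limma (5 at an unadjusted p below 0.05), against 8 by limma-voom with all libraries. Of 22 imprinted genes 4 rose and 9 fell, and 2 rose and 3 fell without day 6 R1. The maternally expressed noncoding RNAs Meg3 and Rian fell from 128 and 107 CPM to 48.0 and 51.5 CPM and from 153 and 177 CPM to 76.9 and 95.2 CPM, and Peg3 from 436 and 448 CPM to 237 and 268 CPM, though Peg3 no longer passed without day 6 R1. The placental gene Peg10 rose from 138 and 145 CPM to 341 and 323 CPM, and Phlda2 had 3 reads at day 3 and 469 at day 6, a ratio of 120 (interval 40.7 to 582). The cell cycle inhibitors of the Ink4 locus, a known barrier to reprogramming, differed. Cdkn2a rose from 40.9 and 48.4 CPM to 74.1 and 84.8 CPM and Cdkn2b, with 85.5 and 89.1 CPM at day 3 and 75.2 and 87.8 CPM at day 6, did not pass.

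The direct comparison of the siWdr5 course with the nt course tested the difference of the 2 changes for each gene. At an adjusted p below 0.05 the siWdr5 change was the higher for 477 genes (3.4%) and the lower for 145 (1.03%). With a difference above 1 on the log2 scale, 97 genes were called higher (0.691%) and 98 lower (0.699%). The median difference over all genes was 0.12, so that single values contain a shared shift of this size. With each library centered on its median the split became 34 higher and 118 lower, and with quantile normalization 56 and 109. The number of calls rested on single libraries. Without nt day 3 R1 or without siWdr5 day 3 R2 limma called no gene, although 266 higher and 311 lower, and 293 higher and 290 lower, stood past the fold at an unadjusted p below 0.05. Without nt day 3 R2 it called 0 higher (249 at an unadjusted p below 0.05) and 2 lower. Without nt day 6 R1 it called 12 higher and 11 lower, without nt day 6 R2 49 and 53, and without siWdr5 day 3 R1 1 and 7. Without siWdr5 day 6 R1 it called 49 and 32, and without siWdr5 day 6 R2 9 and 17.

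Among the genes with the largest positive differences, Nell2, Adamts20, Fam46c and Phf19 fell with nt siRNA and did not pass with siWdr5, while Penk and Cdsn rose with siWdr5. The opioid peptide precursor Penk was at 6.48 and 6.71 CPM at day 3 and 17.4 and 38.5 CPM at day 6 with siWdr5, and at 12.7 and 9.49 CPM at day 3 and 10.9 and 4.92 CPM at day 6 with nt siRNA, a difference of 2.56 ± 0.53 (adjusted p = 0.0271). The cornified envelope gene Cdsn was at 108 and 113 CPM at day 3 and 207 and 375 CPM at day 6 against 65.2 and 89.9 CPM at day 3 and 54.0 and 39.6 CPM at day 6. For both genes siWdr5 day 6 R2 lay well above day 6 R1. The metalloproteinase Adamts20 was at 4.68 and 5.38 CPM at day 3 and 5.03 and 3.04 CPM at day 6, against 14.1 and 15.2 CPM at day 3 and 2.54 and 3.64 CPM at day 6. Nell2, Fam46c and Phf19 differed by 2.19, 1.79 and 1.77. Sall4 and Cdh1 belong here too, since their gap to the nt libraries was wider at day 3 than at day 6, with differences of 1.72 ± 0.36 and 1.22 ± 0.31 (adjusted p = 0.0289 and 0.0419). Cdh1 passed in none of the 8 fits that left out 1 siWdr5 or nt library, and Sall4 passed in 2. Of the 40 epithelial genes 3 passed this test (Cdh1, Spint1 and Pkp1), and 0 with median centering (5 at an unadjusted p below 0.05), 1 with quantile normalization and 2 by limma-voom passed in this direction. The epithelial median of the difference turned to −0.02 and −0.09 under these scalings.

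Among the genes with the largest negative differences, Slc16a3, Postn, Aox3, Ptgir and Prl2c3 rose with nt siRNA and did not pass with siWdr5. The lactate transporter Slc16a3 was at 3.5 and 1.93 CPM at day 3 and 9.17 and 3.5 CPM at day 6 with siWdr5, against 2.51 and 2.02 CPM at day 3 and 21.7 and 36.3 CPM at day 6 with nt siRNA. The prostacyclin receptor Ptgir was at 9.47 and 10.4 CPM at day 3 and 11.2 and 8.30 CPM at day 6, against 6.34 and 6.47 CPM at day 3 and 25.5 and 25.3 CPM at day 6. The siWdr5 values of the 2 days overlapped for Ptgir, while the nt values of day 6 lay far above those of day 3. The Ras-association gene Rassf6 fell from 7.29 and 8.70 CPM to 3.17 and 3.76 CPM with siWdr5 and rose from 1.79 and 2.76 CPM to 4.78 and 4.84 CPM with nt siRNA. Aox3, Prl2c3, Lum and Neb differed by −2.05, −1.99, −1.99 and −1.98. For Neb the siWdr5 course had the larger change, since the nt libraries were at 3.90 and 4.19 CPM at day 3 and 2.78 and 3.01 CPM at day 6. Ptgs2 had the smallest adjusted p of this comparison (0.00633, difference −1.94 ± 0.26), and it still passed in 6 of the 8 fits that left out 1 siWdr5 or nt library.

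**Figure D4:**
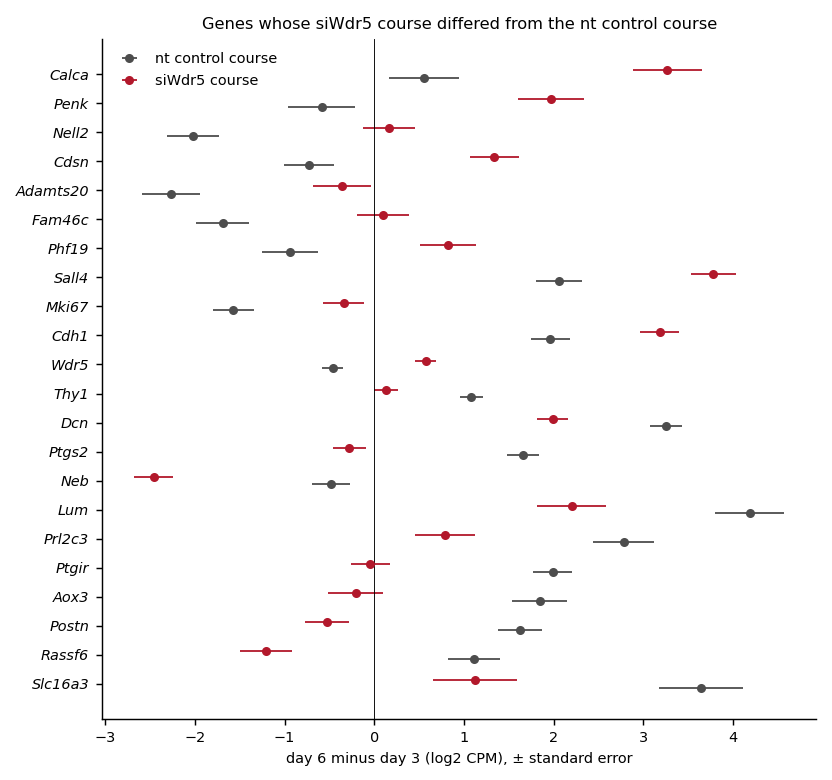
Change from day 3 to day 6 (x axis, log2 CPM) with its standard error in the siWdr5 course (red) and the nt control course (grey) for 22 genes whose courses differed, ordered by the difference. From Calca down to Wdr5 the siWdr5 change lies to the right of the nt change, and from Thy1 down to Slc16a3 it lies to the left.

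Only 2 genes (0.0143%) had a siWdr5 course that differed from the nt, siBrca1 and siBard1 courses at once, with the same sign and an adjusted p below 0.05 in each. Calca, the gene of calcitonin and CGRP, rose from 0.447 and 0.468 CPM to 3.65 and 5.33 CPM with siWdr5 and was at 1.06 and 0.650 CPM at day 3 and 1.74 and 0.854 CPM at day 6 with nt siRNA. Its rise of 3.27 ± 0.39 exceeded those of the nt, siBrca1 and siBard1 courses by 2.72, 2.54 and 3.66 on the log2 scale. Dcn, described above, rose by 1.99 ± 0.17 and differed by −1.27, −0.82 and −1.60. The 3 comparisons share the siWdr5 libraries and are not independent. Leaving out 1 of the 16 libraries gave between 0 and 18 such genes, and none without either nt day 3 library, nt day 6 R2, either siWdr5 day 3 library, either siBard1 day 3 library or siBard1 day 6 R2.

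Markers of other cell types were given by the summed level of each list in the siWdr5 libraries, and several of these sums moved with the day. Of the macrophage and blood list 13 of 20 genes were in the table. Their summed level was 45.2 and 51.9 CPM at day 3 and 33.9 and 36.8 CPM at day 6. The monocyte genes Adgre1, Fcgr3, Cd14, C1qb, Tyrobp and Spi1 stayed under 1 CPM in all 4 siWdr5 libraries, as did Coro1a. Of the 8 tested genes of this list 1 rose, Coro1a, with 11 reads at day 3 and 36 at day 6. Siglecg fell, and 6 did not pass. The summed level of the endothelial list (13 of 16) fell from 89.0 and 92.3 CPM to 50.8 and 54.6 CPM, with Pecam1, Cdh5 and Emcn under 1 CPM. Of its 6 tested genes 3 fell and 1 rose, Plvap, with 16 reads at day 3 and 130 at day 6. The summed level of the skeletal and cardiac muscle list (10 of 17) fell from 162 and 159 CPM to 103 and 74.5 CPM. Of its 6 tested genes 2 rose, 2 fell and 2 did not pass, with a median log2 change of 0.10. In contrast, the cartilage and bone list (11 of 19) rose from 481 and 515 CPM to 1048 and 1109 CPM, with Spp1 making up most of it at day 6. The neural list (13 of 20) was at 246 and 252 CPM and then at 216 and 245 CPM. The adipocyte list (14 of 18) was at 508 and 545 CPM and then at 480 and 590 CPM, and Adipoq and Cfd were under 1 CPM. The trophoblast and extraembryonic endoderm list (19 of 23) rose from 288 and 293 CPM to 372 and 368 CPM, and the germline list (11 of 24) from 10.2 and 11.7 CPM to 29.0 and 18.2 CPM. No listed marker that was in the table was at 0 reads in all 4 libraries. The part of such cells in the results was not tested. The rRNA-type feature CT010467.1 held 103 and 83 reads in day 3 R1 and day 6 R1 and 9016 and 3083 in the R2 libraries. The feature Gm26917 went the other way, with 19.4% and 18% of the reads of the R1 libraries and 17.0% and 15.9% of the R2 libraries. Their part in the results was not tested.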

How the data were processed

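Ribosomal RNA was depleted from total RNA of the 16 cultures (Kapa RNA HyperPrep with RiboErase), and paired-end libraries were sequenced. Per the submitters' processing notes and the paper's methods, the authors aligned reads with STAR 2.5.2b to mm10 and computed expression with edgeR 3.20.9. The read counter, its strand setting and the annotation are not given in the sources used here. The deposited table holds log2 CPM values for 18990 genes. Every value came back as a whole number of reads (tolerance 0.1 reads, checked up to 10000 reads) after the added prior count was removed.

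Samples were grouped by their labels (8 groups of 2 libraries). Genes that reached 0 on the log2 CPM scale as an average of the 16 libraries went into limma 3.58.1 with a trend (R 4.3.3) and 1 fit of all 16 libraries with the 8 groups as terms, and p-values were adjusted over the 14028 genes by the Benjamini-Hochberg method. A gene passed at an adjusted p below 0.05 and was called with a log2 difference above 1 as well. The unit of the files differed from the counts that a count test needs, so limma-voom on the recovered reads was an alternative. The scripts were tested on simulated data with 200 changed genes. Alternatives were the level filter (none, or a log2 CPM of at least 2), pseudocounts of 1 and 0.1 CPM, median centering, quantile normalization, no trend, a fit of 8 libraries, a replicate block, and each library left out. The list counts and the ranges per gene were added as alternatives after the data were seen.

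The comparison and the gene lists were chosen with earlier results of these data known. Named genes were (a) Wdr5, Brca1, Bard1 and the OSKM factors, (b) 12 called genes each from the top of the rises and of the falls, where siWdr5 libraries averaged a log2 CPM of 2 or more, (c) the 8 largest differences in each direction from the nt course at the same level in siWdr5 and nt libraries, (d) up to 6 genes per list, taken by the size of a passing change, plus those with the role described, and (e) the genes that differed from each of the 3 other courses. The Zeb and Snail genes, the genes shown for their promoter letters and the genes of the low read counts were chosen after their values were seen. Apela, Cdkn1c, Ctgf, Penk, Pou5f1, Spp1 and Twist2 share over 10% of their exon bases with another gene, so their reads may hold those of the neighbor. Reads of the OSKM cassette and the endogenous genes were not separated. A few items that the rules name are not reported here. Intervals and the floor of 3 reads cover counting error only.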

Additional observations from a re-analysis of the deposited data

Results flagged for a closer look

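The test of the difference itself, siWdr5 course minus nt course, passed at an adjusted p below 0.05 for 59 of the 149 genes that the text draws on. Part of these genes were named because they passed this test, so that the count follows from the choice of genes. Of all genes tested, 477 were higher (3.4%) and 145 lower (1.03%). The values here are the differences on the log2 scale, with a shift of 0.12 over all genes. None of the 59 passed in all 8 fits that left out 1 siWdr5 or nt library. Ptgs2 passed in 6 of them and Neb, Postn and Ptgir in 4.

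Of the 34 positive differences, those in signaling and tissue genes were 2.72 for Calca, 2.56 for Penk, 2.19 for Nell2, 2.07 for Cdsn, 1.91 for Adamts20, 1.79 for Fam46c, 1.77 for Phf19 and 1.58 for Has2. Pluripotency and epithelial genes gave 1.72 for Sall4, 1.68 for Nr5a2, 1.37 for Spint1, 1.22 for Cdh1 and 1.18 for Pkp1. Metabolic, imprinted and matrix genes gave 1.14 for Slc2a3, 0.79 for Hk2, 1.03 for Nnat and 0.83 for Col24a1. Mitotic genes gave 1.29 for Spc24, 1.23 for Mki67, 1.10 for Foxm1, 0.99 for Incenp, 0.96 for Cdc25b and 0.81 for Tpx2. Replication and repair genes gave 0.99 for Mcm3, 0.96 for Pole, 0.90 for Dnmt1, 0.83 for Rrm2, 0.82 for Mcm2, 0.85 for Rad51d and 0.72 for Topbp1. Subunits of H3K4 methyltransferases gave 1.04 for Wdr5, 0.87 for Hcfc1, 0.61 for Men1 and 0.56 for Paxip1.

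Of the 25 negative differences, matrix and fibroblast genes gave −0.92 for Col11a1, −0.95 for Thy1, −1.27 for Dcn, −1.66 for Spp1, −1.99 for Lum, −2.02 for Col25a1, −2.02 for Mmp10 and −2.15 for Postn. Cytokine, prostaglandin and signaling genes gave −0.92 for Dusp6, −1.90 for Ccl8, −1.94 for Ptgs2, −2.03 for Ptgir and −2.06 for Il11. The imprinted RNAs and cell cycle inhibitors gave −1.05 for Mirg, −1.20 for Rian, −1.02 for Cdkn2b and −1.43 for Cdkn1c. Muscle, metabolic and other genes gave −3.00 for Myh3, −2.52 for Slc16a3, −2.32 for Rassf6, −2.19 for Dnmt3l, −2.05 for Aox3, −1.99 for Prl2c3, −1.98 for Neb and −1.92 for Apob.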

How the results depend on the processing

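No value that passed changed its sign under any alternative. Of 104 text genes that passed in the siWdr5 course, 80 passed without each of the 4 siWdr5 libraries and 92 in all other settings. The genes called from day 3 to day 6, 799 higher and 230 lower, became 452 and 135 with a log2 CPM of at least 2, 510 and 148 with a pseudocount of 1 CPM, 530 and 371 with quantile normalization, and 2090 and 1463 with no fold threshold. Without 1 siWdr5 library they ranged from 580 to 773 and from 132 to 293. The rise of Wdr5 ranged from 0.45 (adjusted p = 0.0540, without siWdr5 day 6 R1) to 0.69. List members that passed, 413 in all, ranged from 246 to 364.

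The genes whose courses differed from nt, 97 higher and 98 lower, became 213 and 217 with 8 libraries in the fit and 6 and 14 with no trend. The higher count became 34 with median centering, 56 with quantile normalization and 477 with no fold threshold, and the lower count 65 at a log2 CPM of at least 2. Without 1 siWdr5 or nt library they ranged from 0 to 49 and from 0 to 53, and without 1 siBrca1 or siBard1 library from 64 to 153 and from 76 to 140. The 2 genes that differed from all 3 courses became 1 with no filter, 1 at a log2 CPM of at least 2, 1 with no trend, 4 by limma-voom and 12 with the replicate block, and ranged from 0 to 18 without 1 of the 16 libraries. Without a library fewer samples enter the fit, and beyond that the cause was not tested.

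The replicates came from independent experiments, and the sources used here do not say whether a number marks the same experiment on both days. The differences between replicates of siWdr5 day 3 and day 6 correlated across genes at 0.136, over 2 pairs. The replicate block gave 820 and 235 called genes for the siWdr5 course and 124 and 125 for the difference, and 44 histone genes that rose in place of 9. The prior count of the deposited values limits folds of genes with few reads, which were given as reads.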
